A study of Homo sapiens with 12 samples.

Results

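The replication-dependent histone genes were described across 12 total RNA libraries of HCT116 cells, an established human colorectal carcinoma line. They were chosen by symbol: names that begin with HIST1, HIST2, HIST3 or HIST4 followed by H1, H2A, H2B, H3 or H4. The rule left out 14 names that end in PS and a digit, and it gave 76 of the 57134 genes in the deposited table. By class they comprise 6 H1, 17 H2A, 23 H2B, 15 H3 and 15 H4 genes, of which 6 are annotated as pseudogenes. By cluster, 55 HIST1 genes lie on chromosome 6, 16 HIST2 and 4 HIST3 genes on chromosome 1, and 1 HIST4 gene on chromosome 12.

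The groups were DASHed mini-bulk (2 libraries), untreated mini-bulk (2), DASHed single cells (4) and untreated single cells (4), all of the same line with no other treatment named. DASHed libraries had been depleted of ribosomal RNA (rRNA) with scDASH, in which Cas9 cuts library fragments made from rRNA, and untreated libraries had not. All were made with MATQ-seq, a total RNA method that primes inside transcripts and does not depend on a poly(A) tail, and the single cells had been sorted by FACS. The labels do not say how many cells a mini-bulk library holds or whether libraries came from separate cultures, so p-values measure only the spread between libraries, which may be technical. Each single-cell sample is 1 cell with no culture named, so DASHed and untreated cells are not tested against each other.

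Values are estimated read counts, and CPM means counts scaled to a library total of 1000000. Total counts were 837614 and 1087711 in DASHed mini-bulk and 5803180 and 6026584 in untreated mini-bulk. They were 1018874 to 1573651 in DASHed cells and 5545355 to 6008358 in untreated cells. rRNA genes and the 4 genes annotated inside 18S rRNA genes held 38.0 to 42.7% of DASHed and 82.2 to 85.8% of untreated mini-bulk counts, and 29.9 to 38.4% and 72.9 to 81.3% in DASHed and untreated cells. Of 8 epithelial markers, 5 to 8 had counts in each library, CEACAM5 being at 0 in 10 of 12 libraries, CDH1 in DASHed cells 1 and 2, and EPCAM in DASHed cell 2. Leukocyte and endothelial markers summed to at most 1.23 and 6.16 CPM in any library, and fibroblast markers to at most 29.5 CPM.

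Same-numbered DASHed and untreated single-cell libraries varied together. Across 6407 genes that are not histone genes, their deviations from the group means correlated at 0.932 to 0.944. Libraries with different numbers correlated at −0.406 to −0.197. A gene's deviations sum to 0 over the 4 libraries of a group, so these negative values are built in and are no separate evidence. Same-numbered libraries were therefore read as 4 pairs from their own correlation, and a pattern seen in both libraries of a pair counts once.

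Histones package DNA into nucleosomes: 2 copies each of H2A, H2B, H3 and H4 form the core, and H1 binds the linker DNA between cores. Replication-dependent genes supply them in S phase. Their short mRNAs lack introns and mostly end, without poly(A), just after a stem-loop in the 3′ untranslated region that the stem-loop binding protein SLBP recognises. Many H2A and H2B genes stand head to head and share the DNA between their starts, and the factor NPAT activates the clusters as cells enter S phase.

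The stem-loop is the element that sets these mRNAs apart from poly(A) mRNAs, so it is shown for 6 of the genes that rose in mini-bulk. It was annotated in GENCODE v29 (GRCh38) transcripts of 35 of the 76 genes, and its pattern occurred in 67 of 57133 annotated genes, or 0.117%. Another 32 histone genes have annotated transcripts that stop at the stop codon and so cannot show it. In the remaining 9, HIST1H4C, HIST1H1E and HIST1H3J among them, the transcripts are longer or non-coding and the pattern was not found. Capitals mark the 16 bases of the hairpin, a stem of 6 pairs with a loop of 4 bases, with 5 bases on each side, 5′ to 3′.
HIST1H4E, chr6:26204996-26205021, plus strand: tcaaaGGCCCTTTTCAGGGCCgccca
HIST4H4, chr12:14770719-14770744, minus strand: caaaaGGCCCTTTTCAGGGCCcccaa
HIST2H4B, chr1:149860764-149860789, minus strand: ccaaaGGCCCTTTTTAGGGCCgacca
HIST1H2AC, chr6:26124664-26124689, plus strand: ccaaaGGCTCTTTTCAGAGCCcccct
HIST1H2BF, chr6:26199963-26199988, plus strand: ccaaaGGCTCTTTTAAGAGCCaccca
HIST2H2BE, chr1:149886183-149886208, minus strand: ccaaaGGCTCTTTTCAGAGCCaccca

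The stem differed by class. All 8 H4 genes with an annotated hairpin had the stem GGCCCT, with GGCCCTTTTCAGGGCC in 5 and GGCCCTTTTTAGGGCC in 3. The H2A, H2B and H3 genes had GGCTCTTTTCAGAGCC in 18, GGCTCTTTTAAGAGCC in 5, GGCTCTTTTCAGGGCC in 3 and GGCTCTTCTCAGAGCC in 1. For 25 of the 35 genes the annotation runs on for 100 or more bases past the hairpin, so counts for them can come from longer transcripts as well as from those ending at it. In the mini-bulk test described below, 13 of 24 tested genes with an annotated hairpin rose, with a median log2 fold change of 1.24. Of 15 tested genes whose transcripts stop at the stop codon 9 rose, with a median of 1.28. Of all 10083 tested genes 9.9% rose (adjusted p under 0.05), with a median of 0.03. The hairpin and stop-codon sets were not compared by a test. HIST1H1E, HIST1H3J and HIST1H4C were also tested and belong to neither set.

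The shared regulatory DNA is shown for 2 divergent H2A genes and for HIST1H4E, the most abundant histone gene in mini-bulk. These are the 250 bases before the RefSeq start (GRCh38.p14), 5′ to 3′ on the gene's strand. Capitals mark 3 motifs: the CCAAT box, the TATAAA box and the octamer ATTTGCAT, which OCT1 binds. Each was searched on both strands, so a match on the other strand shows as its reverse complement, and no motif contains another.
HIST2H2AC, chr1:149886668-149886917, plus strand: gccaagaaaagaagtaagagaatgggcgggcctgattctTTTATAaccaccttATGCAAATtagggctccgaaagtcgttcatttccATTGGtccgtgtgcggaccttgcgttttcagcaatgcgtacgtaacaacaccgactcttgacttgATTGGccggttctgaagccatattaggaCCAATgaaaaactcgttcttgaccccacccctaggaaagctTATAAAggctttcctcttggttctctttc
HIST1H2AJ, chr6:27814778-27815027, minus strand: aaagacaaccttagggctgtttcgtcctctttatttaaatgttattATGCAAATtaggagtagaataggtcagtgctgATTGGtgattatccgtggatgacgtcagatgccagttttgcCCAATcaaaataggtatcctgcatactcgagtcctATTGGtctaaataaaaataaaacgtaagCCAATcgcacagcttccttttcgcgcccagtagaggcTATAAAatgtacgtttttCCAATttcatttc
HIST1H4E, chr6:26204360-26204609, plus strand: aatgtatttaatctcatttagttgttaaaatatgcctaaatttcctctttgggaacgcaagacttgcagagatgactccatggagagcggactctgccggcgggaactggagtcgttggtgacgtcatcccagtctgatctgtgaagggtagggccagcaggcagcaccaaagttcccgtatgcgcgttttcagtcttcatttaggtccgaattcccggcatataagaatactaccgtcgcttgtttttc

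Motif content also differed by class over the 65 histone genes with a RefSeq window of 300 bases (250 before and 50 after the start). CCAAT was present on either strand in all 6 H1, 16 H2A, 18 H2B and 12 H3 windows and in 3 of 13 H4 windows, against 34.6% of all 35116 windows. The octamer was found in 11 of 16 H2A and 14 of 18 H2B windows, 1 of 12 H3 windows and no H1 or H4 window, against 1.77% of all windows. TATAAA was found in 3 of 6 H1, 12 of 16 H2A, 12 of 18 H2B, 9 of 12 H3 and 7 of 13 H4 windows, against 11.5% of all windows. These are matches of letters only.

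Estimates above 0 were listed for 58 of the 76 genes, HIST2H2BB with only 0.0646 counts in all, and 18 were at 0 in every library. For a gene with its own sequence, a count of 0 allows up to 3 counts, which is 0.498 to 3.58 CPM by library. That limit does not hold for HIST1H4K, all of whose words occur in HIST1H4J, nor for HIST2H3DP1, HIST1H2BI and HIST1H2BB, which also share words. Among the 18 were the testis-specific genes HIST1H1T, HIST1H2AA, HIST1H2BA and HIST3H3, and also HIST1H1A, HIST1H1B, HIST1H1D, HIST1H2BB, HIST1H2BH, HIST1H2BI, HIST1H3C, HIST1H3F, HIST1H4B, HIST1H4F, HIST1H4G, HIST1H4K, HIST1H4L and the pseudogene HIST2H3DP1. A further 10 had fewer than 10 counts in all 12 libraries together. HIST1H1E and HIST1H1C were thus the only linker histone genes of the 6 with counts.

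Histone counts took a larger share of DASHed libraries. The share was 0.419% (exact Clopper-Pearson 95% interval 0.407 to 0.431) and 0.424% (0.410 to 0.438) in DASHed mini-bulk, against 0.0412% (0.0396 to 0.0428) and 0.0508% (0.0490 to 0.0527) in untreated mini-bulk. The intervals cover counting error only, for reads without molecular identifiers. The means were 0.421% ± 0.0033 and 0.0460% ± 0.0068 (SD, n = 2 each), a ratio of 9.16, and the groups did not overlap. In mini-bulk, a share that comes from fewer cells in S phase and one from less histone RNA per cell cannot be told apart.

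The ratio depended on which counts it was taken of. Outside rRNA genes the histone share was 0.552 and 0.542% in DASHed against 0.0799 and 0.0928% in untreated mini-bulk, a ratio of 6.33. When the 4 genes inside 18S rRNA were left out as well, it was 0.731 and 0.684% against 0.290 and 0.285%, a ratio of 2.46. Same-numbered cells had ratios of 6.35, 4.59, 5.57 and 5.61 over all counts, and of 1.93, 1.78, 1.69 and 1.89 outside both.

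**Figure D1:**
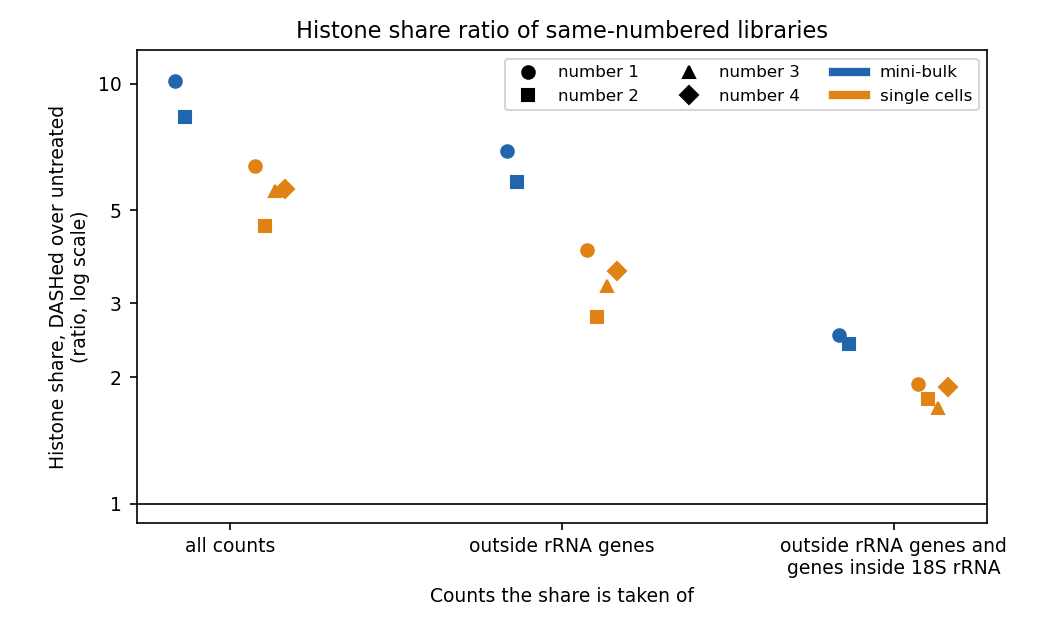
Ratio of the histone share in DASHed over untreated libraries of the same number (log axis; line at 1), for 3 choices of the counts the share is taken of. Mini-bulk ratios lie above the single-cell ratios under each choice, and all ratios shrink when rRNA genes and genes inside 18S rRNA are left out, to 2.40 and 2.52 in mini-bulk and 1.69 to 1.93 in cells.

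By class, H4 mRNAs took the most histone counts in mini-bulk and H1 the fewest. H4 summed to 1561 and 1683 CPM in DASHed against 158 and 207 CPM in untreated mini-bulk. H2B summed to 1154 and 1076 CPM against 109 and 127 CPM, and H2A to 1014 and 1044 CPM against 88.6 and 109 CPM. H3 had 328 and 232 CPM against 41.2 and 37.5 CPM, and H1 133 and 202 CPM against 15.3 and 27.2 CPM. DASHed libraries were above untreated ones in every class. The ratios of group means were 10.4 for H2A, 9.46 for H2B, 8.87 for H4, 7.89 for H1 and 7.12 for H3, with 2 libraries a group behind each. Some sequence is shared across classes, such as between HIST1H3J and HIST1H2AM. The H3 and H2A totals therefore depend in part on how the estimates split reads.

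Within the histone counts of mini-bulk, most class and cluster fractions overlapped between treatments. H4 was 38.5% ± 1.7 of histone counts in DASHed and 39.6% ± 1.7 in untreated mini-bulk, and H2B 26.5% ± 1.5 and 25.7% ± 1.0 (SD, n = 2 each). H2A was 24.4% ± 0.32 and 21.5% ± 0.029, and these 2 pairs of libraries did not overlap. HIST1 genes held 81.3% ± 0.89 of histone counts in DASHed and 81.5% ± 0.52 in untreated mini-bulk, and HIST2 genes 17.3% ± 0.96 and 16.97% ± 0.25. HIST3 and HIST4 genes held 0.855% and 0.551% in DASHed and 1.19% and 0.358% in untreated mini-bulk. The HIST3 fractions did not overlap between treatments either.

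**Figure D2:**
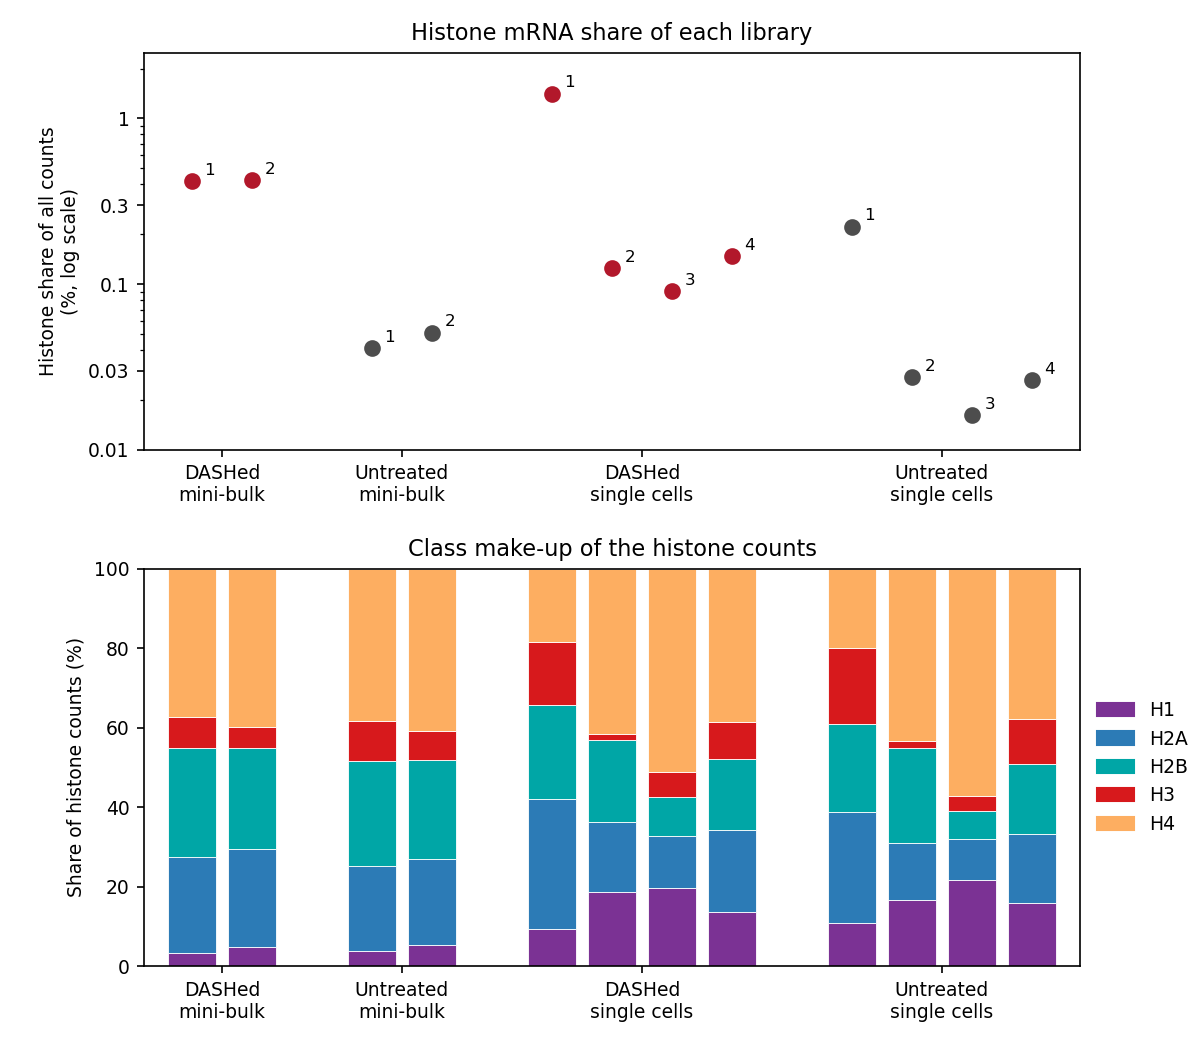
Top, histone counts as a percent of all counts in each of the 12 libraries (log axis; numbers are replicate numbers). Bottom, percent of the histone counts in each class. Cells labelled 1 lie above the other cells in both treatments (1.41% DASHed, 0.222% untreated), and the H4 fraction reaches 51.0% in DASHed and 57.1% in untreated cell 3.

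Gene by gene, DASHed mini-bulk was tested against untreated mini-bulk with edgeR's quasi-likelihood test, scaled with TMM factors. On this scale the median gene had a log2 fold change of 0.03, so a histone fold change is relative to a typical gene; CPM, taken of the whole library with its rRNA, differs far more between groups. Of 42 histone genes with enough counts to test, 24 rose and none fell at an adjusted p under 0.05 (Benjamini-Hochberg). Of all 10083 genes tested, 9.9% rose and 19.8% fell at the same threshold. The median histone log2 fold change was 1.25, and 41 of 42 lay above the median gene. All 42 had both DASHed libraries above both untreated ones in CPM, as had 76.7% of all tested genes. Of 15 tested genes that share under 10% of their 31-base words with other genes, 8 rose; the other 27, and every HIST2 gene, are called uncertain, since the estimates may split reads between copies.

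GC content moved with the fold changes of all genes (Spearman's rho 0.789 over 10080 genes, a description), and rho was 0.03 over the 42 histone genes. Their median GC content was 57.4%, against 51.4% for all tested genes and 59.3% for all that rose. With a GC correction 15 histone genes rose and none fell, against 1.66% of all genes up and 2.16% down, and 14 of them were among the 24. The other was HIST1H4H. The correction raised some folds, such as HIST1H2AC from 1.26 to 2.77, and lowered others, such as HIST1H3B from 1.28 to 0.61. It uses the median GC content of a gene's annotated transcripts, 41.96% for HIST1H2AC and 59.12% for HIST1H3B, so it depends on what the annotation includes. Without untreated replicate 1, 15 rose, against 2.64% of all genes, and without untreated replicate 2, 8 rose, against 2.44% of all genes. These 8 were HIST1H1E, HIST1H2AC, HIST1H2AM, HIST1H2BM, HIST1H4D, HIST1H4E, HIST2H2AC and HIST2H2BE.

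**Figure D3:**
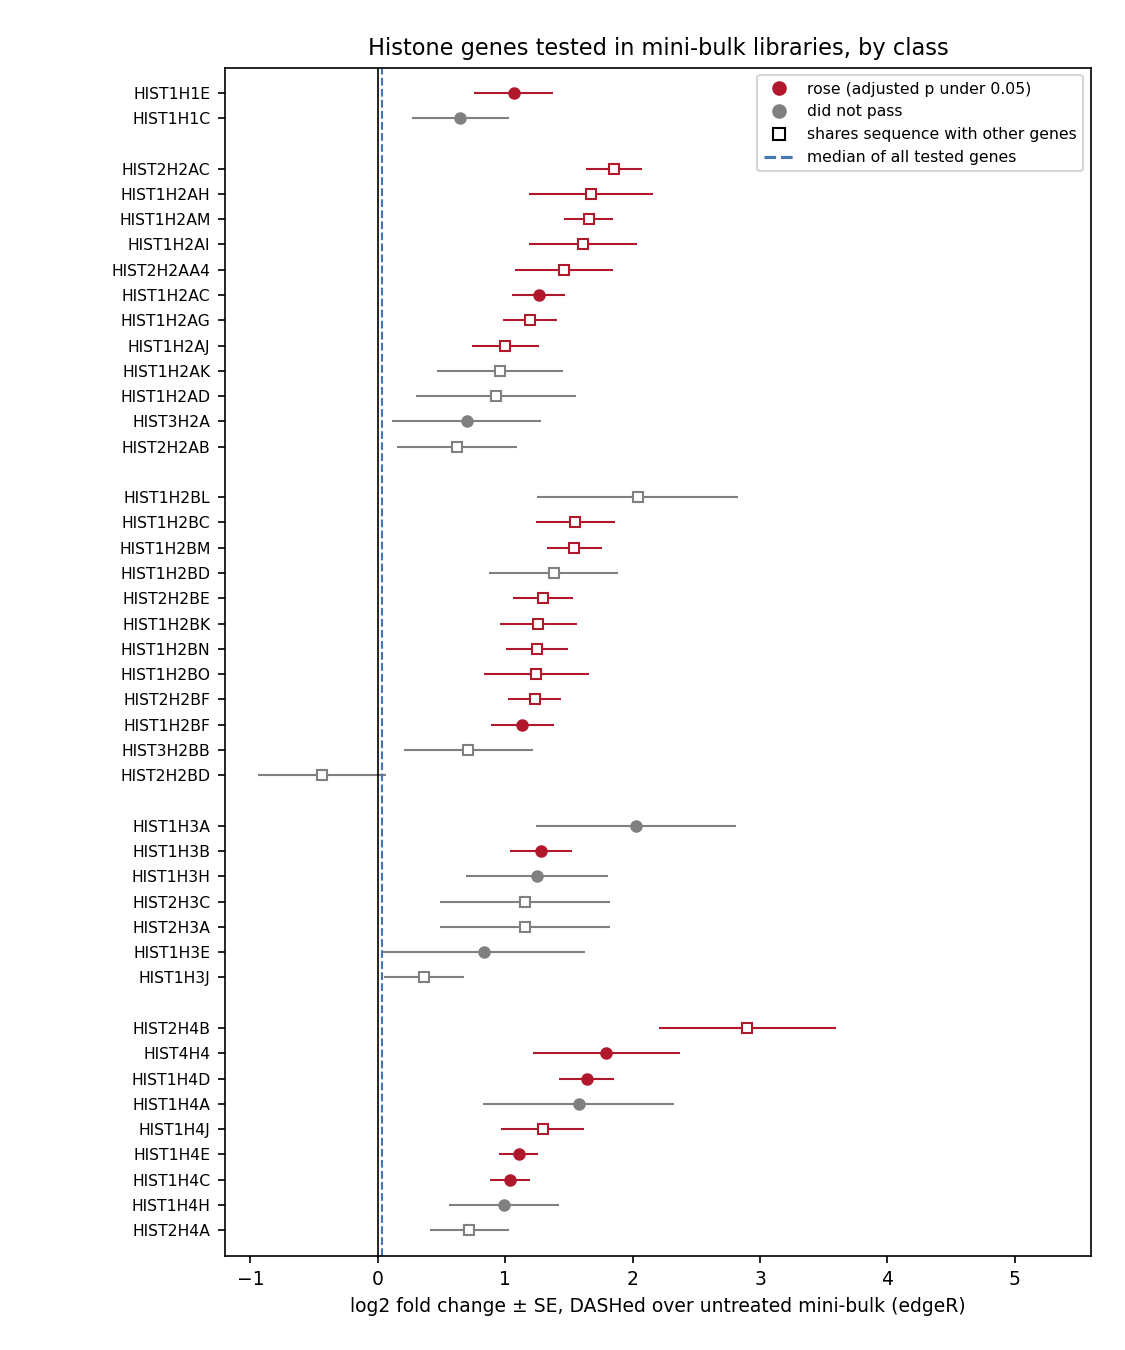
Log2 fold change with its standard error (edgeR), DASHed over untreated mini-bulk, for the 42 tested histone genes by class. Red marks the 24 that rose, open squares the 27 genes that share sequence with others, and the dashed line the median of all tested genes at 0.03; HIST2H2BD alone lies below 0.

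Among H4 genes, 6 of 9 tested rose, of 15 in the class. HIST1H4E (H4C5) was the most abundant histone gene in mini-bulk, at 709.7 and 806 CPM in DASHed against 72.0 and 104 CPM in untreated libraries. It rose, with a log2 fold change of 1.11 (SE 0.15, edgeR adjusted p = 0.00138). HIST1H4C followed at 469.8 and 474 CPM against 52.9 and 60.7 CPM and rose by 1.04 (SE 0.15, edgeR adjusted p = 0.00198). Per kilobase of coding sequence the same order held, 2452 against 1527 CPM in DASHed mini-bulk; per kilobase of annotated transcript it turned, 509.6 against 1085 CPM, since HIST1H4E is annotated at 1487 bases and HIST1H4C at 435.

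HIST1H4D had 163 and 201 CPM in DASHed against 11.5 and 17.6 CPM in untreated mini-bulk, a rise of 1.64 (SE 0.22, edgeR adjusted p = 0.00114). HIST4H4, which stands alone on chromosome 12, had 28.5 and 17.9 CPM against 0.996 and 2.41 CPM. It rose by 1.79 (SE 0.58, edgeR adjusted p = 0.0438), and with the GC correction it did not pass (1.45, edgeR adjusted p = 0.233). HIST1H4J, which shares 82.2% of its words and is uncertain, also rose (1.29, SE 0.32). It did not pass with the GC correction (0.54, edgeR adjusted p = 0.457) or without either untreated library. HIST1H4H and HIST1H4A did not pass, with log2 fold changes of 0.99 and 1.58. With the GC correction HIST1H4H passed (2.20, edgeR adjusted p = 0.0188) and HIST1H4A did not (0.88, edgeR adjusted p = 0.657).

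HIST2H4A and HIST2H4B are near-identical copies on chromosome 1 that share over 97% of their words, so both values are uncertain. HIST2H4B had 15.8 and 17.1 CPM in DASHed against 0.624 and 0.320 CPM in untreated mini-bulk and rose by 2.90 (SE 0.70, edgeR adjusted p = 0.0146), the largest fold of the tested histone genes. It did not pass without untreated replicate 1 (3.45, edgeR adjusted p = 0.133) or without untreated replicate 2 (2.17, edgeR adjusted p = 0.307). HIST2H4A had 71.6 and 51.7 CPM against 8.00 and 10.9 CPM, with a log2 fold change of 0.72 (SE 0.31) that did not pass (edgeR adjusted p = 0.110).

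Among H3 genes, 1 of 7 tested rose, of 15 in the class. HIST1H3B had 114 and 109.8 CPM in DASHed against 11.3 and 11.4 CPM in untreated mini-bulk and rose by 1.28 (SE 0.24, edgeR adjusted p = 0.00555), while its GC-corrected value of 0.61 did not pass (edgeR adjusted p = 0.233). HIST1H3J had 154 and 86.5 CPM in DASHed against 24.8 and 21.6 CPM in untreated mini-bulk. Its log2 fold change of 0.36 (SE 0.32) did not pass (edgeR adjusted p = 0.402) and was −0.37 with the GC correction. It shares 42.4% of its words with other genes, most with HIST1H2AM, whose annotated span overlaps its own on the same strand, so both are uncertain. HIST1H3A and HIST1H3H, with log2 fold changes of 2.03 and 1.25, did not pass. HIST2H3A and HIST2H3C had equal values in every library, 6.19 and 5.63 CPM in DASHed against 0.701 and 0.775 CPM in untreated mini-bulk, and cannot be told apart by these estimates. HIST2H3D, also uncertain, had 5.54 and 0 counts in DASHed and 0.122 and 0 in untreated mini-bulk.

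Among H2A genes, 8 of 12 tested rose, of 17 in the class. HIST1H2AM had 233 and 220.4 CPM in DASHed against 15.1 and 20.8 CPM in untreated mini-bulk, a rise of 1.65 (SE 0.19, edgeR adjusted p = 0.000645). HIST2H2AC (H2AC20) had 160.1 and 202 CPM against 11.7 and 12.8 CPM. Its rise of 1.85 was the largest H2A fold (SE 0.22, edgeR adjusted p = 0.000659) and was 1.09 with the GC correction (edgeR adjusted p = 0.01997). HIST1H2AC, one of the 2 tested H2A genes that are not uncertain, had 155 and 179 CPM against 13.8 and 21.0 CPM and rose by 1.26 (SE 0.21, edgeR adjusted p = 0.00326). HIST3H2A, the other, had a log2 fold change of 0.70 (SE 0.58) and did not pass.

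HIST1H2AG had 136 and 138 CPM in DASHed against 13.6 and 15.96 CPM in untreated mini-bulk and rose by 1.19. HIST1H2AJ had 113 and 86.5 CPM against 11.9 and 12.8 CPM and rose by 1.001, and HIST1H2AH rose by 1.67 from fewer counts (58 against 27). With the GC correction neither passed, at 0.25 and 0.93 (edgeR adjusted p = 0.740 and 0.397), and both also missed the threshold without DASHed replicate 1, untreated replicate 1 or untreated replicate 2. HIST2H2AA4 rose by 1.46 (SE 0.38) but did not pass with the GC correction (0.72, edgeR adjusted p = 0.405), while its near-identical partner HIST2H2AA3 had no count in any mini-bulk library. HIST2H2AB, at 34.3 and 43.2 CPM against 3.02 and 9.82 CPM, did not pass, with a log2 fold change of 0.62 (SE 0.47) that was −0.13 with the GC correction.

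Among H2B genes, 8 of 12 tested rose, of 23 in the class, and only HIST1H2BF of the 12 tested was not uncertain. HIST2H2BF had 220.5 and 198 CPM in DASHed against 22.3 and 21.8 CPM in untreated mini-bulk and rose by 1.23 (SE 0.21, edgeR adjusted p = 0.00360). HIST1H2BM had 173 and 156 CPM against 12.3 and 15.9 CPM and rose by 1.54 (SE 0.21, edgeR adjusted p = 0.001385). HIST1H2BF had 165 and 119 CPM against 15.3 and 17.1 CPM and rose by 1.13 (SE 0.25, edgeR adjusted p = 0.00981). HIST2H2BE had 117 and 169 CPM against 12.3 and 16.3 CPM and rose by 1.295 (SE 0.24), and HIST1H2BC rose by 1.55 (SE 0.31). HIST3H2BB did not pass, with a log2 fold change of 0.71.

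Of the H2B pseudogenes, HIST2H2BD had 10.3 and 23.0 CPM in DASHed against 4.12 and 6.69 CPM in untreated mini-bulk, with a log2 fold change of −0.44 (SE 0.50, edgeR adjusted p = 0.521), the only negative one of the 42 and positive, 1.57, when scaled to library totals. HIST2H2BC had too few counts to test, 1.97 in DASHed and 21.9 in untreated mini-bulk.

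Both linker genes with counts were tested and 1 rose. HIST1H1E, a main somatic H1 gene, had 101 and 169.5 CPM in DASHed against 10.5 and 21.9 CPM in untreated mini-bulk and rose by 1.07 (SE 0.31, edgeR adjusted p = 0.0303). Its GC-corrected value of 0.36 did not pass (edgeR adjusted p = 0.631), and it also missed the threshold without DASHed replicate 2 and without untreated replicate 1. HIST1H1C had 32.2 CPM in both DASHed libraries against 4.81 and 5.34 CPM in untreated ones, with a log2 fold change of 0.65 (SE 0.38) that did not pass (edgeR adjusted p = 0.217).

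Divergent H2A and H2B neighbours were mostly both detected. Of 13 pairs whose annotated starts lie within 500 bases on opposite strands, both genes had at least 10 counts over the 12 libraries in 11, and neither had in 2, HIST1H2AA with HIST1H2BA and HIST1H2AE with HIST1H2BG. Of all 76 histone genes 58 had counts, 10 of them fewer than 10. Among the 11, HIST1H2BJ only just reached 10 counts, with none in cells. HIST2H2AA3, paired with HIST2H2BD, had counts in cells only and is uncertain. The HIST2H2AC window printed above lies in the 323 bases between HIST2H2AC and HIST2H2BE, which had 343 and 268 counts in DASHed and 145 and 169 in untreated mini-bulk. The HIST1H2AJ window lies in the 304 bases between HIST1H2AJ and HIST1H2BM, with 195 and 319 counts in DASHed and 146 and 167 in untreated mini-bulk. Pairing did not mean equal levels: HIST1H2AG and HIST1H2BJ had 263 and 8.01 counts in DASHed and 174 and 2.06 in untreated mini-bulk.

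Cells differed far more from each other than mini-bulk libraries did. Cell 1 had 18736 histone counts when DASHed, 1.41% of its counts (exact 95% interval 1.39 to 1.43), and 12806 when untreated, 0.222% (0.219 to 0.226). Cell 2 had 0.125% (0.119 to 0.132) and 0.0273% (0.0260 to 0.0287), cell 3 had 0.0905% (0.0858 to 0.0953) and 0.0162% (0.0152 to 0.0173), and cell 4 had 0.147% (0.141 to 0.153) and 0.0262% (0.0249 to 0.0276), DASHed and untreated. Cell 1 was thus 11.3 times the median of cells 2 to 4 in DASHed and 8.48 times in untreated libraries, and 12.8 and 11.8 times outside rRNA and 18S-inside genes. Only 1 cell is behind this value.

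Cell 1 also had the most histone genes detected, and the number of all genes detected in each cell is not set beside this here. At least 1 count was found for 44, 23, 21 and 31 histone genes in DASHed cells 1 to 4 and for 44, 23, 23 and 28 in untreated cells 1 to 4. Thinned to the smallest library total, 837614 counts, which leaves the counts outside rRNA unequal between treatments, the expected numbers were 43.6, 23.1, 19.99 and 28.3 in DASHed and 42.8, 19.0, 16.8 and 23.8 in untreated cells. In each treatment 48 histone genes were found in any cell, and these 48 were not all the same genes. Of them, 13 were found in DASHed cell 1 alone and 14 in untreated cell 1 alone. Cell 1 had the highest CPM for 43 of the 48 in DASHed and for 42 of the 48 in untreated cells. These counts include the 13 and 14 genes found in cell 1 alone, for which it is highest by construction. No share over all genes is given beside these counts, so they do not set histone genes apart from other genes.

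**Figure D4:**
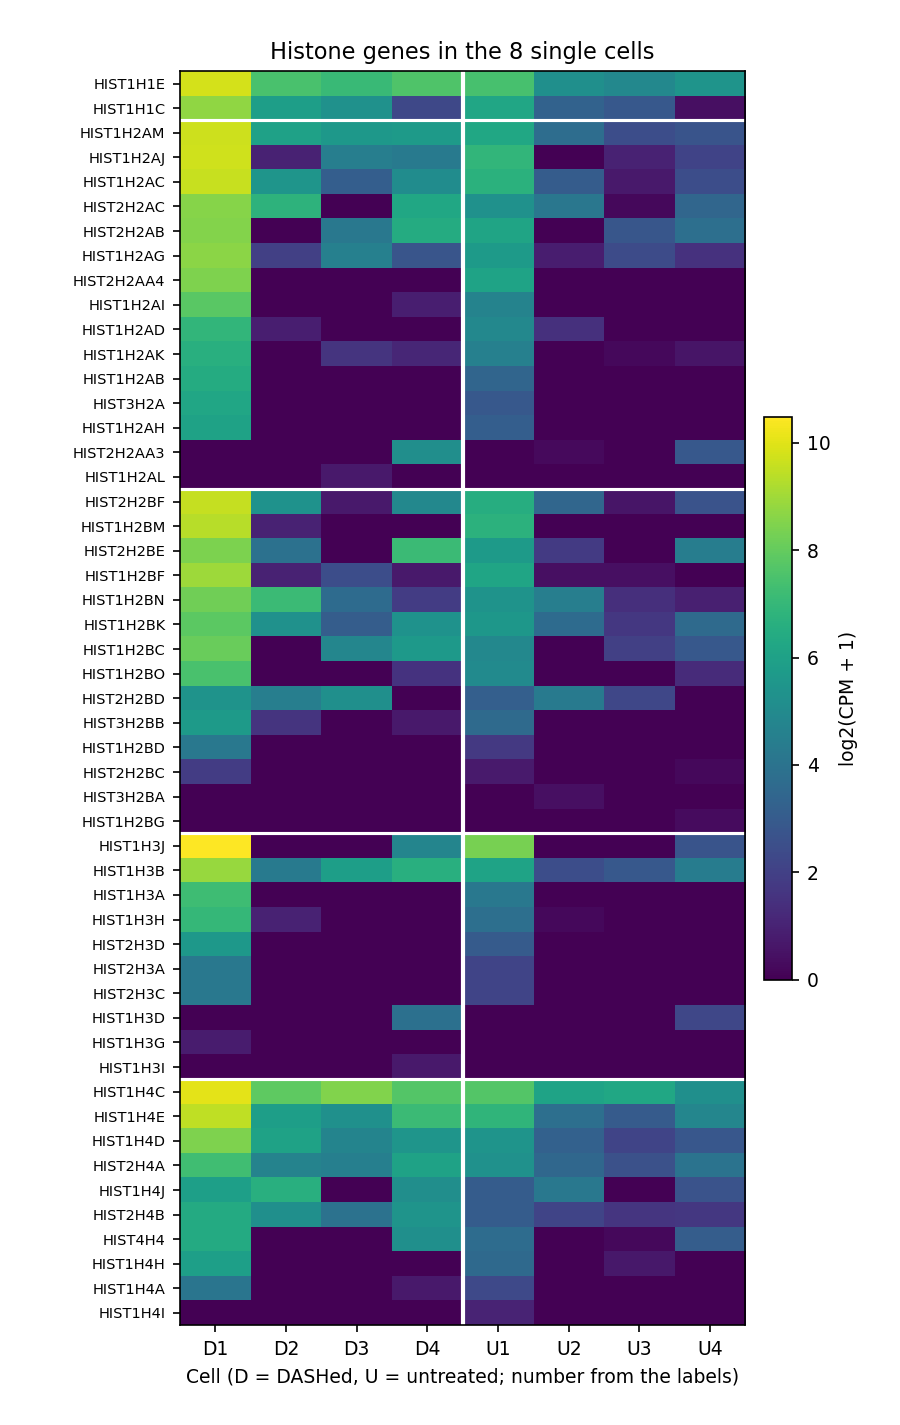
Log2(CPM + 1) of the histone genes with at least 1 count in any single cell, by class (white lines), in DASHed cells D1 to D4 and untreated cells U1 to U4. Column 1 is brightest in both treatments, and each DASHed cell resembles the untreated cell of its own number.

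In cell 1 the leading gene was HIST1H3J, with 1432 CPM in DASHed and 318 CPM in untreated libraries, which was 10.1 and 14.3% of the histone counts. It was at 0 in cells 2 and 3 and at 26.1 and 5.52 CPM in cell 4, DASHed and untreated. HIST1H2BM was similar: 659 CPM in DASHed and 106 CPM in untreated cell 1, and in other cells only 1 count, in DASHed cell 2. H2A was the largest class of cell 1, at 32.7% of histone counts in DASHed and 27.9% in untreated libraries, with H4 at 18.4 and 19.8%. Because HIST1H3J shares 42.4% of its words, most with HIST1H2AM, the H2A and H3 fractions of this cell are uncertain in part. In the other cells H4 was largest, at 38.5 to 51.0% in DASHed and 37.8 to 57.1% in untreated cells.

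Cell 2 was led by HIST1H4C, with 238 CPM in DASHed and 66.2 CPM in untreated libraries, then HIST1H1E (176 and 36.8 CPM) and HIST1H2BN (143 and 21.3 CPM). H3 was low in this cell, at 1.57 and 1.72% of histone counts. HIST1H4J, which was at 0 in cell 3, was highest here, at 98.1 CPM in DASHed and 17.1 CPM in untreated libraries, above cell 1 (58.8 and 7.29 CPM). Cell 3 rested on few genes. HIST1H4C alone had 362 CPM in DASHed and 74.4 CPM in untreated libraries, 40.0 and 45.8% of its histone counts, and 2 genes gave over 50% of them; HIST1H1E was the second.

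Cell 4 was shared by HIST1H4C (203 CPM in DASHed, 35.8 CPM in untreated libraries) and HIST1H1E (194 and 41.5 CPM), then HIST1H4E (140.4 and 26.8 CPM) and HIST2H2BE (139.6 and 20.5 CPM). HIST2 genes took 32.0 and 27.8% of its histone counts, against 10.1 to 19.5% in the other DASHed and 10.8 to 22.7% in the other untreated cells. HIST2H2AA3 had 35.4 and 6.48 CPM here and HIST2H2AA4 none, while in cell 1 HIST2H2AA4 had 348 and 65.8 CPM and HIST2H2AA3 none; the copies share over 97% of their words, so which is counted is uncertain. HIST1H3D was found in cell 4 alone, with 21.1 and 21.0 counts, and is uncertain as well. HIST4H4 had counts in cells 1 and 4 (83.7 and 36.2 CPM in DASHed, 12.2 and 7.41 CPM in untreated cells) and otherwise 1 count, in untreated cell 3.

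Across 12 pairings of a DASHed with an untreated cell of another number, log2(CPM + 1) of the histone genes with 10 or more counts over the cells correlated at 0.362 to 0.662, and across the 4 same-numbered pairings at 0.941 to 0.972. These are descriptions across genes, which are not independent. Same-numbered cells shared 43, 20, 20 and 26 detected histone genes, which is 97.7, 87.0, 95.2 and 83.9% of those in DASHed and 97.7, 87.0, 87.0 and 92.9% of those in untreated cells 1 to 4. Genes with 20 or more counts in both libraries of a pair had higher CPM in the DASHed one in 39 of 39, 14 of 14, 11 of 11 and 19 of 19 cases for cells 1 to 4, against 95.1, 91.8, 96.8 and 92.7% of all such genes. Their median ratios were 6.80, 4.95, 5.43 and 5.45, and those of all genes 4.05, 3.29, 3.85 and 3.49.

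Mini-bulk and single cells weighted some of the genes differently, a comparison of inputs with no test. HIST1H1E was 6.35 to 17.6% of histone counts in the 8 single-cell libraries and 2.41 to 4.31% in the 4 mini-bulk libraries, without overlap. HIST1H4E was 4.17 to 10.2% in single cells and 16.9 to 20.4% in mini-bulk, without overlap. The ranges of HIST1H4C overlapped, at 7.60 to 45.8% in single cells and 11.2 to 12.9% in mini-bulk. Those of HIST1H3J did too, at 0 to 14.3% and 2.04 to 6.03%. All of these genes were singled out here after their values were seen, and the other histone genes were not compared in this way.

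Genes of histone mRNA transcription and 3′ end processing moved in both directions, as did all tested genes, of which 9.9% rose and 19.8% fell (1.66 and 2.16% with the GC correction). Of 21 tested of 23 listed, 4 rose and 7 fell in DASHed mini-bulk, with a median log2 fold change of −0.50, and with the GC correction 1 rose and none fell. NPAT had 5 and 4.73 counts in DASHed against 48.4 and 39.6 in untreated mini-bulk and fell by 2.52 in log2 units, with an SE of 0.53 (edgeR adjusted p = 0.00854). With the GC correction its value was −0.81 and did not pass (edgeR adjusted p = 0.540). CPSF2, a subunit of the cleavage complex, and NCBP2, which binds the mRNA cap, fell by 2.45 and 2.32. SLBP, named for its role, had 10 and 3 counts against 23 and 33, with a log2 fold change of −1.50 (SE 0.61) that did not pass (edgeR adjusted p = 0.0927). Of 16 histone chaperone genes tested 2 rose and 6 fell, among them the H3.3 chaperone subunit ATRX, which fell by 3.06. With the GC correction none of the 16 rose or fell, and ATRX had −1.23 (edgeR adjusted p = 0.154).

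The cell cycle lists held more that fell than rose, and so did all tested genes (9.9% rose and 19.8% fell). Their median log2 fold changes were below the 0.03 of all tested genes, at −0.77 for S phase and −1.28 for G2 and M phase. Of 37 tested S phase genes 3 rose and 13 fell, with BLM, ATAD2 and HELLS falling by 2.25, 2.21 and 2.20, and of 46 tested G2 and M phase genes 6 rose and 26 fell, led by KIF20B (at 0 in both DASHed libraries), G2E3 and ECT2. With the GC correction 2 S phase genes rose and none fell, and 1 G2 and M phase gene rose and 2 fell, against 1.66% of all tested genes up and 2.16% down. The list medians were then −0.07 for S phase and −0.12 for G2 and M phase, against 0.04 for all tested genes.

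In single cells the S phase list and the histone share ordered the cells differently. Its 42 genes summed to 1491, 2010, 3097 and 1546 CPM in DASHed and 598, 817, 927 and 649.6 CPM in untreated cells 1 to 4, so cell 1, with the most histone counts, was lowest. Scaled to the counts outside rRNA and 18S-inside genes instead, cell 1 had 2421 in DASHed, where the cells ranged from 2400 to 4447, and 3197 in untreated, where they ranged from 2990 to 4393. Of the 42 genes, 36, 33, 40 and 35 had counts in DASHed and 40, 35, 41 and 37 in untreated cells. The replication clamp gene PCNA had 37.7, 16.7, 148 and 36.2 CPM in DASHed and 18.8, 12.4, 42.3 and 18.4 CPM in untreated cells. SLBP had 0.754, 63.8, 17.6 and 46.4 CPM in DASHed and 3.99, 38.4, 3.495 and 14.5 CPM in untreated cells. CDK1 was at 0 in cells 1 and 4 of both treatments and in DASHed cell 2, with 1 count in untreated cell 2. In cell 3 it had 5.85 CPM in DASHed and 9.99 CPM in untreated libraries. The 52 genes of the G2 and M phase list summed to 3177, 4632, 5240 and 4291 CPM in DASHed cells 1 to 4. In untreated cells 1 to 4 they summed to 1120, 2576, 2120 and 1879 CPM. The part of the cell cycle in the histone differences between cells was not tested.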

How the data were processed

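Per the submitters' processing notes, kallisto 0.46.2 produced the values. The deposited table holds estimated counts by gene without depth scaling, and between 31.1 and 55.9% of a library's values above 0 are not whole. The genome build, annotation and strand setting were not given in the sources used here. Gene names damaged by a spreadsheet (52) were restored. GENCODE v29 supplied positions, GC content, hairpins and the words shared between genes, and RefSeq the promoters.

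Mini-bulk counts were rounded and tested with edgeR 4.0.16 (filterByExpr, TMM, quasi-likelihood test, Benjamini-Hochberg over all tested genes); the fit was tested on simulated data. Alternatives were DESeq2 1.42.0, library totals, no filter, removal of rRNA and 18S-inside genes, a GC correction, a replicate block and left-out libraries. DASHed and untreated single cells were not tested against each other; Dixon's test was run over the 4 cells of a treatment.

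Genes given with values were, in each class, the 4 most abundant in mini-bulk, the 2 with the largest passing fold and the 2 most abundant in cells, plus HIST2, HIST3 and HIST4 genes with 10 or more counts and testis-specific genes. HIST1H2BJ, HIST1H2BN, HIST1H3D, HIST1H4A, HIST1H4H, HIST1H4J, SLBP, PCNA and CDK1 were added outside that rule, with values seen. The histone genes and all lists (mRNA processing, chaperones, S phase, G2 and M phase, cell type markers) were chosen with earlier results of these data known.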

Additional observations from a re-analysis of the deposited data

Results flagged for a closer look

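Among 42 sets of values over the 4 cells of a treatment, 33 had 1 cell far from the others by Dixon's test at the 95% level, which sets the gap to the nearest cell against the whole range, and in all 33 it was cell 1. Chance flags about 1 in 20 independent sets, but these sets are not independent, since they share cells and the same-numbered libraries vary together. The class and cluster totals are also parts of the same histone total. The 33 therefore describe 1 cell many times over and cannot be set against that rate. The histone share of cell 1 was 1.41% in DASHed and 0.222% in untreated libraries. Its class totals were 1325 and 243 CPM for H1, 4619 and 621 CPM for H2A, 3344 and 489 CPM for H2B, 2249 and 429 CPM for H3, and 2594 and 441 CPM for H4, DASHed and untreated. Its cluster totals were 11352 and 1809 CPM for HIST1, 2569 and 385 CPM for HIST2, and 125 and 17.6 CPM for HIST3. The single genes examined were the 2 most abundant in cells of each class, a choice that cell 1 largely decides, so their values describe that cell and add no support. Those far from the other cells in both treatments were HIST1H1C (428 and 72.6 CPM), HIST1H1E (897 and 171 CPM), HIST1H2AJ (851 and 118 CPM), HIST1H2AM (832 and 75.2 CPM), HIST1H2BM (659 and 106 CPM), HIST1H3J (1432 and 318 CPM) and HIST2H2BF (765 and 90.8 CPM). HIST1H4E stood apart in DASHed cells (715 CPM). The number of genes detected, the HIST4 total, HIST1H3B and HIST1H4C did not pass in either treatment, nor did HIST1H4E in untreated cells.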

How the results depend on the processing

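Under 10 alternatives no histone gene fell. The count of genes that rose was 24 of 42 tested, against 9.9% of all tested genes. It was 21 of 38 with an adjusted p in DESeq2 (8.32% of all genes) and 25 of 53 with no filter (4.29%). With rRNA and 18S-inside genes removed it was 25 of 36 (13.5%). Of the 42 genes, 30 rose with a replicate block, 15 with the GC correction (1.66% of all genes) and 42 when scaled to library totals. Scaling to library totals moved the median of all genes to 2.04, with 66.6% of all genes up, and 41 of 42 histone genes stayed above that median. Leaving out 1 mini-bulk library gave 8 to 29, with 29 without DASHed replicate 2, 15 without untreated replicate 1 and 8 without untreated replicate 2; all 8 were among the 24. The single library left in an arm was then assumed to vary like the others. The mini-bulk numbers are shared by only 2 pairs (r = 0.454 over 10041 genes), so the block of the replicate numbers is not taken as a pairing; under the block 23.4% of all genes rose. Directions turned for HIST1H3J, to −0.37 with the GC correction, −0.06 without DASHed replicate 1 and −0.11 without untreated replicate 2. Without 1 library HIST1H3J ranged from −0.11 to 0.87. HIST2H2AB turned to −0.13 with the GC correction and ranged from −0.032 to 1.28 without 1 library, being negative without untreated replicate 1. HIST2H2BD turned to 1.57 under library totals and ranged from −0.92 to 0.15 without 1 library, being positive without DASHed replicate 1. The cause was not tested. The mini-bulk share ratio of 9.16 was 6.33 outside rRNA genes and 2.46 outside rRNA and 18S-inside genes, and 8.29 to 10.2 without 1 library. The single-cell ratio of 5.59 was 3.44 and 1.83 under these denominators, and 5.57 to 5.61 without 1 pair. The cell 1 value of 8.48 in untreated cells was 11.8 outside rRNA and 18S-inside genes; leaving out 1 other cell gave 10.4 to 13.1 in DASHed and 8.31 to 10.5 in untreated cells, and leaving out the most abundant gene changed none of these values beyond the spread. The ratio of detected genes in mini-bulk, 0.939, was 1.18 with totals thinned to the smallest library, which does not match the counts outside rRNA, and 1.07 for 10 or more counts; without 1 library it was 0.918 to 0.959.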
